A study of Mus musculus with 19 samples.

Results

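The mitochondrial SLC25 carriers are a family of membrane proteins that move metabolites across the inner mitochondrial membrane. The genes described here were taken by name: every array probe with a RefSeq mRNA accession whose symbol begins with Slc25a and a number, without the erythroid iron carrier Slc25a37 and the glycine carrier Slc25a38. This gave 45 genes of the 47 such symbols in the RefSeq list, the other two being those left out, and of the 38391 features on the array. Where a gene had several probes, the probe with the highest mean signal stood for it, which concerned 8 genes.

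RNA was measured in 7 cell populations of adult bone marrow, sorted from C57BL/6 mice of 8 to 12 weeks, with 1 single-colour Agilent array per sample and 19 arrays in all. The labels name no treatment, mutation or transgene. LSK cells (3 arrays) lack lineage markers, carry Kit and Sca1, and hold the stem and multipotent cells. Common myeloid progenitors (CMP, 3 arrays) were sorted as low for CD16/32 and high for CD34, megakaryocyte erythroid progenitors (MEP, 3 arrays) as low for both, and granulocyte macrophage progenitors (GMP, 2 arrays) as high for both. Early erythroblasts (2 arrays) were Ter119-positive, large by forward scatter and high in CD44, late erythroblasts (3 arrays) were Ter119-positive, small and intermediate in CD44, and granulocytes (3 arrays) were Gr1-positive. The labels do not say how many animals gave a sample, whether animals were pooled, or whether replicates came from separate animals, so p-values measure how far these samples spread, and that spread can be technical.

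Most SLC25 proteins sit in the inner mitochondrial membrane and exchange 1 solute of the matrix for another of the cytosol. Some serve energy supply directly, such as the ADP/ATP and phosphate carriers that feed ATP synthase, and others move citrate, amino acids, fatty acid esters, cofactors, nucleotides, glutathione or iron. Red cell precursors make heme partly inside mitochondria, for which succinyl-CoA, glycine and iron must be present there, and they discard mitochondria at the end of maturation. Neutrophils depend mainly on glycolysis and keep few mitochondria.

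Levels are log2 signal relative to the 75th percentile of the same array, so a level of 0 equals that percentile and a difference of 1 is a 2-fold difference. That percentile was 50.1 to 81.3 intensity units on the 5 erythroblast arrays and 266 to 607 on the other 14, and 42.9% to 47.1% of spots were well above background on the former against 49.5% to 66.3% on the latter. In bulk RNA, fewer cells of a type and less RNA per cell cannot be told apart. The erythroid markers Gata1, Klf1, Epor and Alas2 had mean levels of 7.87, 6.17, 9.0 and 10.2 in early and 6.90, 5.02, 8.18 and 11.1 in late erythroblasts. In CMP they stood at 5.39, 2.83, 4.76 and -1.10, and in MEP at 5.85, 3.21, 4.97 and -1.85. LSK cells had 1.84, -1.52, 0.53 and -2.06, and GMP 1.19, -2.30, -0.71 and -2.72. Gata1, Klf1 and Epor in CMP thus lay closer to MEP than to LSK cells or GMP. The mean level of the stem cell markers Hlf, Mecom, Procr, Meis1 and Ly6a was 2.71 to 2.86 on LSK arrays and at most 0.13 elsewhere. Ly6a alone was not highest in LSK cells (3.58), standing at 5.64 in granulocytes and 3.34 in GMP. Meis1 stood at 5.49 in LSK cells and 4.62 in MEP. The mature granulocyte genes Ltf, Mmp9, Camp, Ngp and Retnlg had a mean of 9.36 to 9.50 on granulocyte arrays, but also of 4.95 to 5.32 on LSK, 4.29 to 4.38 on GMP, 2.58 to 4.13 on early and 4.71 to 5.08 on late erythroblast arrays, against 0.41 to 1.89 on CMP and MEP arrays. The part in the carrier levels of the cells that these marker lists stand for was not tested.

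Of the 45 carriers, 39 were well above background throughout at least 1 cell type and were tested, and 38 of these varied over the 7 cell types (limma's moderated F test, Benjamini-Hochberg adjusted p under 0.05). Among all features tested 95.3% varied by the same rule, and 97% of genes with RefSeq mRNA accessions, called mRNA genes below. The carrier that did not pass was Slc25a15, an ornithine carrier (adjusted p = 0.119). On all 19 arrays 24 carriers were well above background, and on none Slc25a18, Slc25a48 and Slc25a54. Slc25a2, Slc25a31 and Slc25a34 were above it on 4, 1 and 2 arrays and were not tested either. Of the 38 that varied, 25 had their lowest mean in 1 of the erythroblast stages, and for 9 of these a stage had no array well above background, so that the order of both stages was not measured. Of the other 13, 4 were lowest in a cell type with no array above background. The highest mean of 10 was in GMP, of 7 in MEP, 6 in early erythroblasts, 6 in granulocytes, 4 in LSK cells, 3 in late erythroblasts and 2 in CMP.

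**Figure D1:**
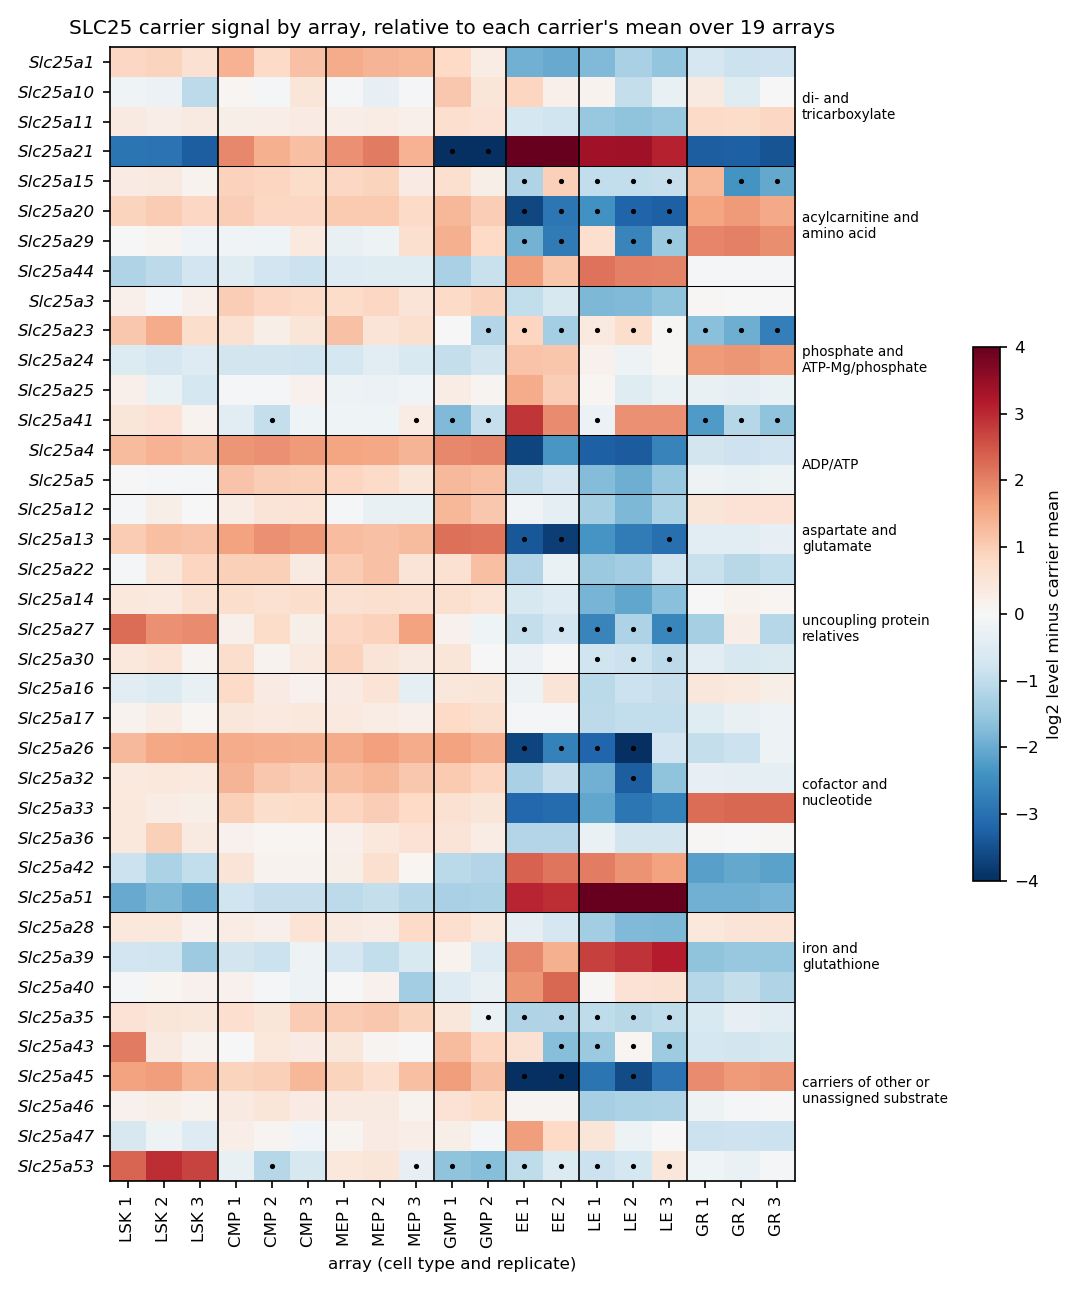
Signal of 38 of the 39 tested carriers (rows, grouped by the solute they carry) on the 19 arrays (columns), as log2 level minus the carrier's mean over all arrays; colours end at 4 in either direction, and black dots mark spots not well above background. Blue cells lie mostly in the early (EE) and late erythroblast (LE) columns, where Slc25a51, Slc25a21, Slc25a42, Slc25a39 and Slc25a44 are red, while granulocytes (GR) are red for Slc25a24, Slc25a33 and Slc25a29.

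The ADP/ATP carriers export the ATP made in the matrix. Slc25a4, the form that predominates in muscle and heart, stood at 5.55, 5.69 and 5.60 in LSK cells, 6.07, 6.13 and 5.99 in CMP, 5.86, 5.85 and 5.64 in MEP and 6.21 and 6.27 in GMP. It was at 0.61 and 1.98 in early erythroblasts, 1.02, 0.95 and 1.61 in late erythroblasts and 3.55, 3.45 and 3.54 in granulocytes. The erythroblast arrays were the lowest, with both stages overlapping, and the granulocyte arrays lay between them and the progenitors without overlap. Slc25a5, the form found in most dividing cells, stood at 5.0, 4.89 and 4.92 in LSK cells, 6.10, 5.97 and 5.92 in CMP, 5.82, 5.74 and 5.44 in MEP, 6.26 and 6.18 in GMP, 4.02 and 4.21 in early erythroblasts, 3.23, 3.03 and 3.47 in late erythroblasts and 4.76, 4.69 and 4.76 in granulocytes. Its cell types formed a ladder without overlap, from late erythroblasts at the bottom through early erythroblasts, granulocytes, LSK, MEP and CMP to GMP, and the highest CMP array and the lowest GMP array were 6.10 and 6.18.

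Slc25a3 imports the phosphate that ATP synthase needs. It stood at 5.07, 4.81 and 5.08 in LSK cells, 5.86, 5.71 and 5.66 in CMP, 5.61, 5.72 and 5.39 in MEP and 5.66 and 5.79 in GMP, and at 3.90 and 4.24 in early erythroblasts, 3.08, 3.12 and 3.27 in late erythroblasts and 4.93, 4.90 and 4.88 in granulocytes. CMP, MEP and GMP overlapped, as did LSK cells and granulocytes, and late erythroblasts lay below early ones. Slc25a41, an exchanger of ATP-Mg for phosphate, was dim. It stood at -1.17 and -2.17 in early erythroblasts and -4.28, -2.22 and -2.22 in late erythroblasts, against -3.57, -3.47 and -3.91 in LSK cells, -4.51, -5.01 and -4.23 in CMP, -4.21, -4.22 and -3.75 in MEP, -5.81 and -4.98 in GMP and -6.31, -5.19 and -5.65 in granulocytes. No GMP or granulocyte array had it well above background, and its first late erythroblast array fell among the progenitor values.

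Slc25a1 exports citrate, from which the cytosol makes acetyl-CoA for lipid synthesis. It stood at 2.31, 2.40 and 2.12 in LSK cells, 2.89, 2.27 and 2.68 in CMP, 2.97, 2.84 and 2.82 in MEP, 2.30 and 1.78 in GMP, -0.42 and -0.51 in early erythroblasts, -0.28, 0.20 and -0.09 in late erythroblasts and 0.82, 0.65 and 0.66 in granulocytes. Each progenitor population overlapped at least 1 other, granulocytes lay below them and erythroblasts below granulocytes. Slc25a21 carries 2-oxoadipate and 2-oxoglutarate, linking lysine breakdown to the matrix. It stood at 3.67 and 3.65 in early erythroblasts, 2.90, 2.92 and 2.62 in late erythroblasts, 1.45, 0.96 and 0.73 in CMP and 1.35, 1.62 and 0.93 in MEP, against -3.40, -3.40 and -3.78 in LSK cells, -4.44 and -5.19 in GMP and -3.77, -3.74 and -3.92 in granulocytes. The first 4 populations did not overlap the other 3, and neither GMP array was well above background.

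Slc25a13 (citrin) exports aspartate in exchange for glutamate and is part of the malate-aspartate shuttle. It stood at 1.81, 2.01 and 1.93 in LSK cells, 2.41, 2.62 and 2.53 in CMP, 2.04, 1.99 and 2.07 in MEP, 3.0 and 2.96 in GMP, -2.59 and -2.97 in early erythroblasts, -1.55, -2.0 and -2.23 in late erythroblasts and 0.38, 0.34 and 0.49 in granulocytes. It was highest in GMP, and of the 5 erythroblast arrays 2, both of late cells, were well above background. Slc25a20, which brings acylcarnitines in for fatty acid oxidation, stood at 0.45, 0.57 and 0.38 in LSK cells, 0.53, 0.38 and 0.38 in CMP, 0.60, 0.60 and 0.31 in MEP, 0.89 and 0.52 in GMP and 1.11, 1.23 and 1.07 in granulocytes. On the erythroblast arrays it stood at -4.08 and -3.36 in early and -2.87, -3.65 and -3.72 in late cells, none of them well above background, and granulocytes were the highest. Slc25a29, a carrier of basic amino acids, was likewise highest in granulocytes (0.10, 0.16 and 0.02), ahead of GMP (-0.41 and -1.06). It stood at -1.86, -1.75 and -1.98 in LSK cells, -1.98, -2.02 and -1.44 in CMP, -2.14, -2.06 and -1.21 in MEP, -3.74 and -4.67 in early erythroblasts and -1.18, -4.50 and -3.32 in late erythroblasts, where the first late array lay within the range of the progenitors and the other erythroblast arrays were not above background.

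Among the cofactor and nucleotide carriers, Slc25a51 brings NAD+ into the matrix. It stood at 1.48, 1.68 and 1.47 in LSK cells, 2.69, 2.56 and 2.55 in CMP, 2.45, 2.52 and 2.35 in MEP, 2.19 and 2.20 in GMP and 1.56, 1.57 and 1.62 in granulocytes. In erythroblasts it was at 6.53 and 6.44 in early and 8.25, 7.94 and 8.08 in late cells, so every erythroblast array lay above every other array and every late array above both early ones. Slc25a42, which imports coenzyme A, stood at 3.92 and 3.70 in early and 3.61, 3.34 and 3.16 in late erythroblasts, 2.07, 1.68 and 1.70 in CMP and 1.78, 2.19 and 1.63 in MEP. It was lower in LSK cells (0.71, 0.29 and 0.58), GMP (0.47 and 0.37) and granulocytes (-0.63, -0.49 and -0.59), with LSK cells and GMP overlapping and granulocytes the lowest. Slc25a33, a pyrimidine nucleotide carrier, stood at 0.98, 0.86 and 0.79 in LSK cells, 1.51, 1.27 and 1.30 in CMP, 1.44, 1.54 and 1.37 in MEP and 1.18 and 1.04 in GMP. Granulocytes were highest (2.81, 2.87 and 2.86) and early (-2.58 and -2.51) and late erythroblasts (-1.5, -2.33 and -2.14) lowest. Slc25a26, which imports the methyl donor S-adenosylmethionine, was even across the progenitors, at 1.18, 1.40 and 1.44 in LSK cells, 1.35, 1.33 and 1.28 in CMP, 1.35, 1.52 and 1.36 in MEP and 1.48 and 1.32 in GMP. It stood at -3.80 and -2.84 in early erythroblasts, -3.29, -4.24 and -0.91 in late erythroblasts and -1.09, -1.0 and -0.33 in granulocytes, and of the erythroblast arrays late replicate 3 was well above background.

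Of the glutathione and iron carriers, Slc25a39 imports glutathione, and Slc25a40 is its close relative. Slc25a39 stood at 3.41 and 2.91 in early and 4.20, 4.36 and 4.60 in late erythroblasts, against 0.71, 0.68 and 0.04 in LSK cells, 0.74, 0.62 and 1.28 in CMP, 0.80, 0.49 and 0.85 in MEP, 1.60 and 0.95 in GMP and -0.13, -0.03 and -0.05 in granulocytes. Slc25a40 stood at 0.98 and 1.51 in early erythroblasts, above all other arrays, and at -0.74, -0.19 and -0.16 in late erythroblasts, -0.85, -0.69 and -0.60 in LSK cells, -0.60, -0.87 and -0.96 in CMP, -0.80, -0.61 and -2.17 in MEP, -1.29 and -1.07 in GMP and -1.90, -1.72 and -1.98 in granulocytes. Late erythroblasts thus kept the higher Slc25a39 level but overlapped LSK, CMP and MEP for Slc25a40. Slc25a28, the mitoferrin found in most tissues, ran the other way, at 3.30, 3.30 and 3.05 in LSK cells, 3.17, 3.10 and 3.42 in CMP, 3.23, 3.20 and 3.65 in MEP, 3.56 and 3.29 in GMP, 3.31, 3.41 and 3.42 in granulocytes, 2.48 and 2.22 in early erythroblasts and 1.5, 1.12 and 1.09 in late erythroblasts. All erythroblast arrays lay below all others, and late below early.

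Slc25a27, an uncoupling protein relative, and Slc25a53, a member without an assigned solute, were highest in LSK cells. Slc25a27 stood at 0.20, -0.19 and -0.11 in LSK cells, -1.83, -1.29 and -1.80 in CMP, -1.19, -1.10 and -0.42 in MEP, -1.86 and -2.19 in GMP, -3.36, -1.75 and -3.15 in granulocytes, -2.96 and -2.79 in early and -4.67, -3.26 and -4.64 in late erythroblasts. Slc25a53 stood at -1.31, -0.70 and -0.96 in LSK cells, -3.96, -4.79 and -4.29 in CMP, -3.25, -3.15 and -3.98 in MEP, -5.26 and -5.34 in GMP, -4.68 and -4.21 in early erythroblasts, -4.52, -4.35 and -3.21 in late erythroblasts and -3.83, -3.90 and -3.69 in granulocytes. No LSK array of either overlapped another cell type. Slc25a53 was well above background on 10 of the 19 arrays, and on no GMP or erythroblast array. Slc25a45 stood at 2.38, 2.43 and 2.08 in LSK cells, 1.64, 1.72 and 2.07 in CMP, 1.66, 1.43 and 1.96 in MEP, 2.44 and 1.92 in GMP and 2.64, 2.48 and 2.52 in granulocytes, and at -4.13 and -3.64 in early and -2.18, -2.81 and -2.18 in late erythroblasts. The erythroblast arrays lay far below the others, with 2 late arrays well above background and neither early array.

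**Figure D2:**
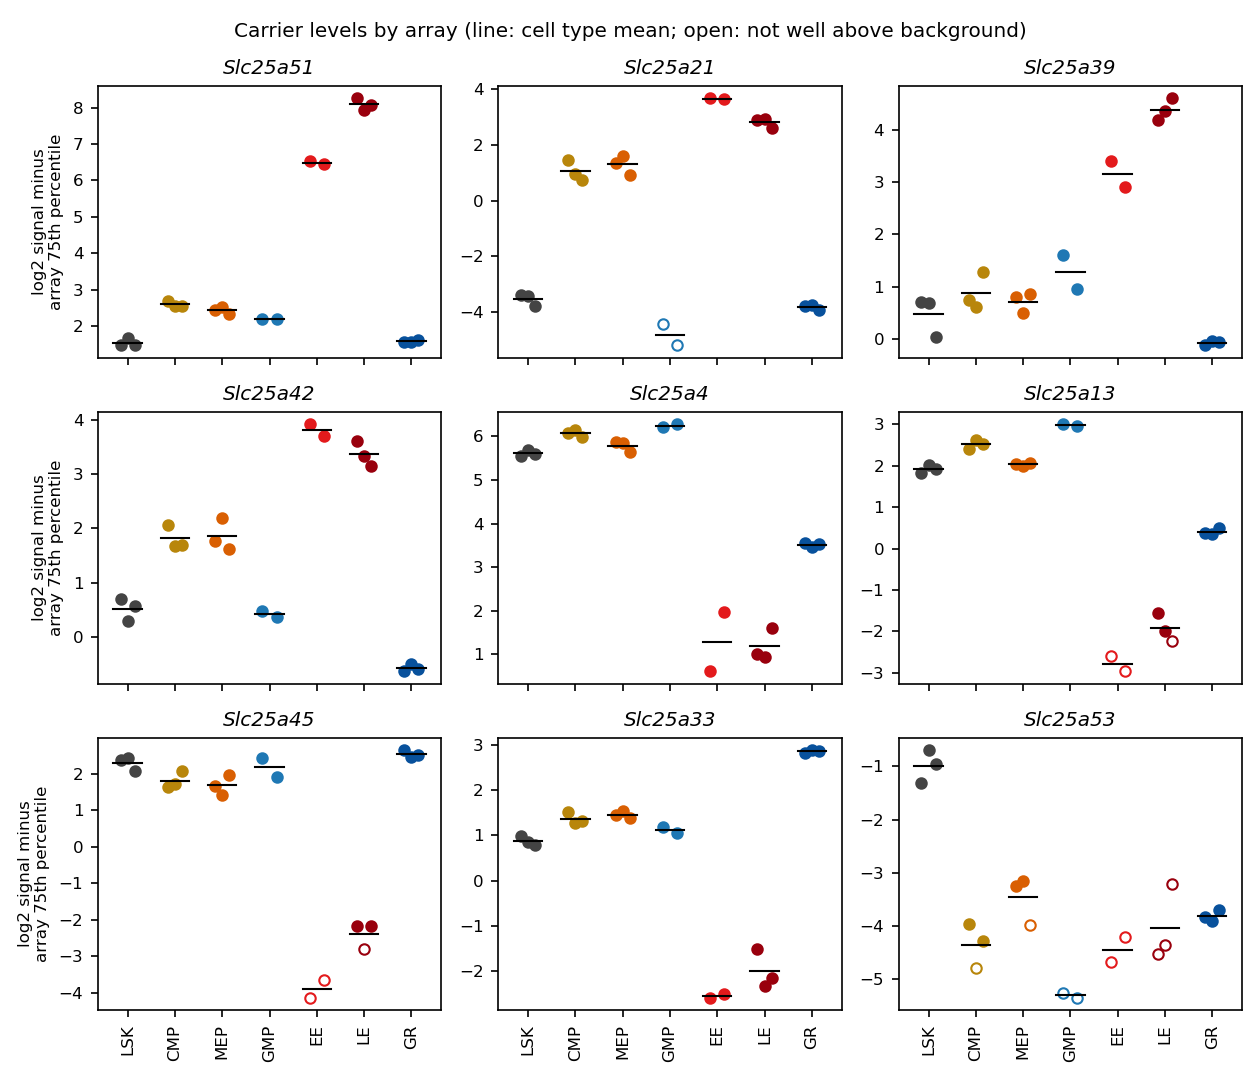
Level of 9 carriers on each array (points, log2 signal minus the array's 75th percentile) by cell type, with the cell type mean as a line and open points where the spot was not well above background; each panel has its own axis. Slc25a51, Slc25a21, Slc25a39 and Slc25a42 are highest in erythroblasts, Slc25a4, Slc25a13, Slc25a45 and Slc25a33 lowest there, and Slc25a53 is highest in LSK cells; under spike-in scaling the early erythroblast minus MEP differences of Slc25a21, Slc25a39 and Slc25a42 turn to below 0.

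From LSK cells to CMP, the step at which myeloid progenitors separate from stem cells, 8 carriers rose and 2 fell of 39 tested (limma, Benjamini-Hochberg adjusted p under 0.05 over all features tested). Among all 24182 features tested 34.3% were called, 21.5% as higher and 12.8% as lower, and of mRNA genes 41.2%, 25.2% as higher and 16% as lower, against 10 of 39 carriers. The median difference was 0.25 for carriers, 0.17 for all features and 0.15 for mRNA genes. The rises were led by Slc25a21 at 4.57 ± 0.23 (log2 difference ± SE, 3 against 3 arrays, adjusted p = 1.01e-08), Slc25a42 at 1.29 ± 0.18, Slc25a5 at 1.06 ± 0.14, Slc25a51 at 1.06 ± 0.12 and Slc25a16, a carrier linked to coenzyme A, at 0.85 ± 0.24. The other probe of Slc25a51 stood at 2.52 in LSK cells and 2.95 in CMP, a smaller rise. Slc25a53 fell by 3.36 ± 0.33 (adjusted p = 3.17e-06) and Slc25a27 by 1.60 ± 0.42 (adjusted p = 0.00833). The other probe of Slc25a53 went from -3.71 in LSK cells to -4.98 in CMP, a smaller fall. On CMP replicate 2 its brighter probe was not well above background. The mature granulocyte genes also differed here, at 4.95 to 5.32 on LSK arrays against 0.84 to 1.89 on CMP arrays. Their part in these differences was not tested. The split was 5 higher and 4 lower after quantile normalization and 5 and 6 with the percentile computed from universally detected probes, and spike-in scaling left 2 calls, Slc25a21 higher and Slc25a53 lower. Without the first CMP array Slc25a16 was not called (0.67, adjusted p = 0.0637).

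The branch between red and granulocytic progenitors was described by 3 comparisons that share arrays. MEP and CMP were close: 1 of 37 carriers was called, while 3.28% of all features were (1.34% higher, 1.94% lower) and 4.34% of mRNA genes (1.56% higher, 2.78% lower). The median differences were 0.0032 for carriers and -0.03 for all features, and 3 carriers had an unadjusted p under 0.05. That carrier was Slc25a12 (aralar), the relative of citrin in the malate-aspartate shuttle, which fell by 0.66 ± 0.16 in MEP (adjusted p = 0.0361). The call was lost without replicate 2 or 3 of either group (-0.64 without CMP replicate 2, -0.62 without CMP replicate 3, -0.62 without MEP replicate 2 and -0.62 without MEP replicate 3, adjusted p 0.12 to 0.175), and with the replicate number as a block (adjusted p = 0.0583), where same-numbered MEP and CMP arrays also share a slide. With slide as a block it was kept.

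From CMP to GMP 1 carrier rose and 3 fell of 37, against 15.9% of all features called (8.14% higher, 7.75% lower) and 20.4% of mRNA genes (10.7% higher, 9.69% lower). Slc25a21 was at least 33.3-fold lower in GMP (adjusted p = 3e-09), a bound that sets the CMP mean against the lowest signal well above background on each GMP array, since neither of them measured it. Slc25a42 fell by 1.40 ± 0.20 (adjusted p = 0.000167), Slc25a12 rose by 0.77 ± 0.18 and Slc25a35, a dim member, fell by 0.62 ± 0.20 (adjusted p = 0.0449). The last 2 depended on single arrays: without GMP replicate 1 Slc25a12 was at 0.64 (adjusted p = 0.0978), and Slc25a35 was at -0.26 without GMP replicate 2, -0.65 without CMP replicate 1 and -0.49 without CMP replicate 3 (adjusted p 0.0868 to 0.509) and at -0.99 without GMP replicate 1. Slc25a35 turned to 0.08 under normexp background correction.

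Between MEP and GMP, 5 carriers were higher and 6 lower in MEP of 37 tested, and 29.1% of all features were called (12.5% higher, 16.7% lower) and 34.9% of mRNA genes (13.9% higher, 21% lower). Slc25a21 was at least 39.6-fold higher in MEP (adjusted p = 2.29e-09), Slc25a42 was higher by 1.44 ± 0.20 (adjusted p = 7.17e-05), Slc25a35 by 0.89 ± 0.20, Slc25a1 by 0.83 ± 0.21 and the branched-chain amino acid carrier Slc25a44 by 0.59 ± 0.19. Both aspartate carriers were higher in GMP, with MEP minus GMP differences of -1.44 ± 0.18 for Slc25a12 (adjusted p = 2.4e-05) and -0.94 ± 0.18 for Slc25a13 (adjusted p = 0.0011). Slc25a5 was at -0.55 ± 0.16, the peroxisomal cofactor carrier Slc25a17 at -0.43 ± 0.13 and Slc25a46, an outer membrane protein of mitochondrial dynamics, at -0.37 ± 0.13. The smaller differences depended on single arrays. Slc25a46 was not called without any 1 of the 5 arrays compared (-0.45 to -0.29, adjusted p 0.053 to 0.253), Slc25a44 not without MEP replicate 1, 2 or 3 or GMP replicate 1 (0.39 to 0.60, adjusted p 0.0607 to 0.312), and Slc25a5 (-0.59 to -0.44) and Slc25a17 (-0.49 to -0.36) not without MEP replicate 3, GMP replicate 1 or GMP replicate 2. Without GMP replicate 2 the count was 5, with Slc25a35 at 0.52 and Slc25a1 at 0.57, and without GMP replicate 1 or MEP replicate 3 it was 7. Slc25a5, Slc25a11, Slc25a17 and Slc25a46 turned to higher in MEP under spike-in scaling, and the split was 5 and 2 after quantile normalization and 11 and 2 with the percentile over detected probes.

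Early erythroblasts differed from MEP in 81.6% of the 38 tested carriers, near the share of all features. Relative to the array's 75th percentile, 21 fell and 10 rose, and 9 of the 10 turned to lower under spike-in scaling. Among all features 80.6% were called, 43.2% as higher and 37.3% as lower, and among mRNA genes 82.3%, 36.6% as higher and 45.7% as lower. The median difference was -1.01 for the carriers, 0.23 for all features and -0.27 for mRNA genes. Slc25a51 rose by 4.05 ± 0.13 (2 against 3 arrays, adjusted p = 3.9e-12), Slc25a39 by 2.45 ± 0.27, Slc25a40 by 2.44 ± 0.36, Slc25a41 by 2.39 ± 0.55 and Slc25a21 by 2.36 ± 0.26. The others that rose were Slc25a42 (1.94), Slc25a44 (1.89), the ATP-Mg/phosphate carriers Slc25a24 (1.70) and Slc25a25 (1.44), and Slc25a47 (1.0). The 10 were called from these same arrays, so the lack of overlap between early erythroblasts and MEP was no separate result. The other probe of Slc25a51 rose less, from 2.67 in MEP to 5.19 in early erythroblasts. Slc25a41 was dim. The lowest signal well above background was -2.93 and -2.81 on early erythroblast arrays and -5.30 to -3.79 on MEP arrays. Slc25a18, Slc25a48 and Slc25a54, above background on no array, were also higher in early erythroblasts, Slc25a18 at a mean of -2.70 against -6.09 in MEP. Other marker lists moved with this step: the macrophage genes C1qa, C1qb, Vcam1, Adgre1 and Cd163 had a mean level of -3.86 to -3.73 on MEP and -1.20 to -1.12 on early erythroblast arrays, with Cd163 above background on none of these. Of the megakaryocyte genes, Pf4 had a mean level of 5.97 in MEP and -2.74 in early erythroblasts, Itga2b of 3.25 and 1.01, and Gp9 of 2.77 and 5.01. Their part in the carrier differences was not tested.

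Energy and shuttle carriers were among those that fell. Slc25a4 fell by 4.49 ± 0.29 (adjusted p = 3e-09), Slc25a33 by 3.99 ± 0.19, Slc25a1 by 3.34 ± 0.21, the folate carrier Slc25a32 by 2.32, Slc25a5 by 1.55, Slc25a3 by 1.5 and Slc25a28 by 1.01. Slc25a13 was at least 26.6-fold lower (adjusted p = 1.32e-11), Slc25a45 at least 23.5-fold (adjusted p = 6.17e-11), Slc25a26 at least 19.4-fold and Slc25a20 at least 10.4-fold, none of them well above background in early erythroblasts. Slc25a12, Slc25a16 and Slc25a46 were among the 7 tested carriers that were not called. Under spike-in scaling, which takes 6 control probes added to every sample as the reference, the median of all features shifted by -3.5, Slc25a51 was at 0.54 (adjusted p = 0.341), Slc25a39 at -1.05, Slc25a40 at -1.06, Slc25a41 at -1.11 and Slc25a21 at -1.14, no carrier was called higher, and 33 were called lower. Both scalings subtract 1 value per array, so every feature shifted alike and no direction relative to the median of all features could turn. Normexp background correction turned the dim Slc25a29, Slc25a30 and Slc25a35.

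**Figure D3:**
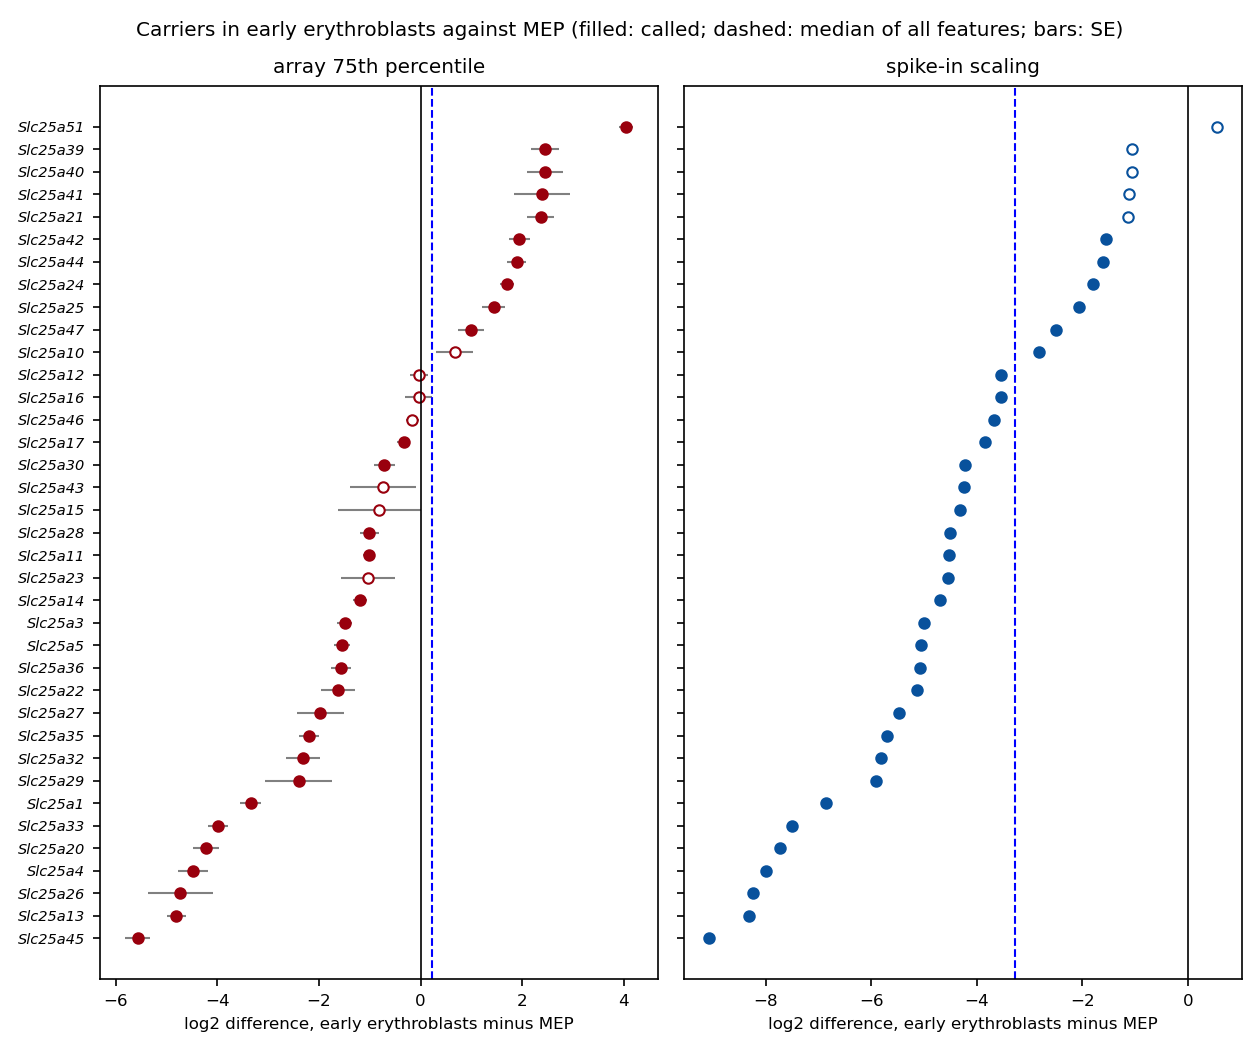
Log2 difference of 37 of the 38 tested carriers between early erythroblasts (2 arrays) and MEP (3 arrays), scaled to the array's 75th percentile (left, with standard errors) and to spike-in probes (right); filled points were called at an adjusted p under 0.05, and the dashed line is the median of all features. The order of the carriers is the same in both panels, but 10 filled points lie right of 0 on the left and none on the right, where the dashed line is at -3.28.

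Promoters of carriers that differed in erythroblasts are shown because members moved in opposite directions there. RefSeq windows (assembly GRCm38.p6) of 300 bases, from 250 before to 50 after an annotated start, matched 35 of the 45 carriers. The 250 upstream bases are printed for Slc25a21, Slc25a39 and Slc25a42, higher in early erythroblasts relative to that percentile, and for Slc25a13, lower there. The bases are given on the strand of the gene, with each match to a searched motif on either strand in capitals. They lie at chr12:57197473-57197722 (minus strand; the upstream of its 2 annotated starts), chr11:102407518-102407767 (minus), chr8:70212282-70212531 (minus) and chr6:6217174-6217423 (minus).
Slc25a21: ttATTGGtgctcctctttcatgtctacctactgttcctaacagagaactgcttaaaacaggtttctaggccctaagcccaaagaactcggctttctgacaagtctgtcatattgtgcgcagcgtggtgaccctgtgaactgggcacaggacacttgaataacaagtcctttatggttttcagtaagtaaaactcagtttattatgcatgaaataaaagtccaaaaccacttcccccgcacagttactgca
Slc25a39: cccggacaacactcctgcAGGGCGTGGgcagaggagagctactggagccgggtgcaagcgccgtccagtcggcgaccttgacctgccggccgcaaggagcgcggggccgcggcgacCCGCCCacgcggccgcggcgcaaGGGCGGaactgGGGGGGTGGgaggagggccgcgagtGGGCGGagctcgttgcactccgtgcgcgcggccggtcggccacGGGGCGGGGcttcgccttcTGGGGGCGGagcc
Slc25a42: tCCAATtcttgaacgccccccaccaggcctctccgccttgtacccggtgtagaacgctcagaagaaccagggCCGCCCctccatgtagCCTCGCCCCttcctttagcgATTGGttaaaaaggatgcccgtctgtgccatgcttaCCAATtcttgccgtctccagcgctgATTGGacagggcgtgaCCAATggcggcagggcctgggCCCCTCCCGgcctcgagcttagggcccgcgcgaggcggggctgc
Slc25a13: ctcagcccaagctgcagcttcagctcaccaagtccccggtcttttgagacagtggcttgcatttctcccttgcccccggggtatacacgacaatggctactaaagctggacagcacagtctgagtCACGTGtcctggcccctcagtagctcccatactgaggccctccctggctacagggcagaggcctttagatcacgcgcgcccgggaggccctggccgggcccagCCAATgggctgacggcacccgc

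The motifs searched, on both strands, were the GATA core AGATAA, the E-box CACGTG, the CCAAT box CCAAT, the GC box GGGCGG and the KLF1 consensus CCNCNCCCN, the last of which can overlap the GC box. Over the whole 300 bases AGATAA was held by 3 of 35 carriers (8.6%) and by 12.7% of 27025 genes with a window, CACGTG by 20.0% and 8.1%, CCAAT by 54.3% and 41.1%, GGGCGG by 82.9% and 38.2%, and CCNCNCCCN by 80.0% and 51.8%. Of the 7 carriers with a window that rose in early erythroblasts, AGATAA and CACGTG were in none. Of the 16 that fell, AGATAA was in 2 and CACGTG in 5, among them Slc25a13 and Slc25a33. CCAAT was in 4 of those that rose and 11 of those that fell, GGGCGG in 5 and 15, and CCNCNCCCN in 6 and 12. The Slc25a21 window above, with 43.2% G and C, held 1 CCAAT box and none of the other motifs, while that of Slc25a39, with 77.2%, held 5 GC boxes and 4 KLF1 matches, and that of Slc25a42 held 5 CCAAT boxes. A match is a run of letters and was not tested as a binding site.

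Between early and late erythroblasts 5 carriers rose and 18 fell of 28 tested, against 57.6% of all features called (20.9% higher, 36.7% lower) and 64.7% of mRNA genes (20.9% higher, 43.8% lower). The carriers' median difference was -0.89, that of all features -0.17 and that of mRNA genes -0.36. Spike-in scaling, which shifted the median of all features by -0.93, gave 0 higher and 19 lower. Slc25a51 rose further, by 1.61 ± 0.13 (adjusted p = 7.38e-07), and Slc25a39 by 1.23 ± 0.27 (adjusted p = 0.00144), while its relative Slc25a40 fell by 1.61 ± 0.36 (adjusted p = 0.00147). Under spike-in scaling Slc25a51 was at 0.68 (adjusted p = 0.335) and Slc25a39 at 0.30 (adjusted p = 0.686), neither of them called. Slc25a25 fell by 1.47 ± 0.23, Slc25a46 by 1.40 ± 0.13, the uncoupling protein relative Slc25a14 by 1.30 ± 0.14 and Slc25a12 by 1.21 ± 0.18. Slc25a3 (-0.92), Slc25a5 (-0.87), Slc25a28 (-1.12), Slc25a24 (-1.12) and Slc25a21 (-0.85) were also called lower.

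The other 3 rises were small: Slc25a44 by 0.66 ± 0.19 and the pyrimidine nucleotide carriers Slc25a36 by 0.60 ± 0.20 and Slc25a33 by 0.55 ± 0.19. All 3 turned to lower under spike-in scaling. Slc25a36 lost its call without EE replicate 1, EE replicate 2 or LE replicate 1 (0.59, 0.60 and 0.44), as did Slc25a33 (0.52, 0.59 and 0.31), with adjusted p between 0.0662 and 0.106, and Slc25a44 without EE replicate 2 (0.37, adjusted p = 0.174). Mature granulocyte genes rose in the same direction, from 2.58 to 4.13 on early to 4.71 to 5.08 on late erythroblast arrays, and Slc25a33 and Slc25a36 stood at means of 2.85 and -0.25 in granulocytes against -2.54 and -1.46 in early erythroblasts, and Slc25a44 at -0.30 against 1.15. The macrophage genes stood at -0.78 to -0.20 on late arrays. The part of both lists was not tested. The other probe of Slc25a44 went from 1.35 to 0.50, opposite to the brighter one. Slc25a51's other probe went from 5.19 to 6.36, the same way as the brighter one.

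From GMP to granulocytes 5 carriers rose and 19 fell of 37 tested, and 65.2% of all features were called, 27.1% as higher and 38.1% as lower, and 69.4% of mRNA genes, 26.6% as higher and 42.7% as lower. The median difference was -0.72 for the carriers, -0.19 for all features and -0.31 for mRNA genes. Slc25a24, a calcium-regulated ATP-Mg/phosphate carrier, rose by 2.55 ± 0.14 (3 against 2 arrays, adjusted p = 2.77e-09), Slc25a33 by 1.74 ± 0.19 (adjusted p = 2.49e-06) and Slc25a44 by 1.03 ± 0.19. Slc25a24 stood at 4.14, 4.20 and 4.11 in granulocytes against 1.48 and 1.71 in GMP. Slc25a53 and Slc25a21 were at least 1.15-fold higher, being close to background in granulocytes and not above it in GMP. Both turned to lower under normexp background correction (-0.04 and -0.01), and Slc25a21 was not called without GMP replicate 2 (0.63, adjusted p = 0.0861).

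Slc25a4 fell by 2.73 ± 0.29 (adjusted p = 1.6e-06), Slc25a13 fell by 2.57 ± 0.18 (adjusted p = 2.93e-08), Slc25a26 by 2.21 ± 0.64, the glutamate carrier Slc25a22 by 1.90 ± 0.34 and Slc25a43, a member of unassigned solute, by 1.76 ± 0.65. Slc25a43 was not called without either GMP array (-1.55 and -1.96) or any 1 granulocyte array (-1.78 to -1.74), with adjusted p between 0.0512 and 0.137. Slc25a5 (-1.48), Slc25a39 (-1.35), Slc25a1 (-1.33), Slc25a42 (-0.99), Slc25a3 (-0.82) and Slc25a51 (-0.61) were lower too. On the other Slc25a51 probe the fall was larger, from 2.79 in GMP to 1.09 in granulocytes. Slc25a28, Slc25a11 and Slc25a20 were not called, at -0.05, 0.16 and 0.43. With the detected-probe percentile the split was 8 higher and 15 lower, and under spike-in scaling 3 and 2. GMP and granulocyte arrays share no slide, and with slide as a block 16 carriers were called.

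The change from MEP to late erythroblasts was set against that from GMP to granulocytes by an interaction term, for the 24 carriers detected, that is well above background, on each array of the 4 populations. It was called for 20 of them, 6 with a red change above the granulocytic one and 14 with a red change below it, against 75.4% of all features (41.3% above, 34.1% below) and 76.1% of mRNA genes (34.6% above, 41.5% below). Slc25a51 changed by 5.65 toward late erythroblasts and by -0.61 toward granulocytes, a difference of 6.26 ± 0.18 (adjusted p = 4.93e-12). Slc25a39 changed by 3.67 and -1.35 (difference 5.02 ± 0.36, adjusted p = 2.28e-08) and Slc25a42 by 1.51 and -0.99 (2.50 ± 0.27, adjusted p = 1.29e-06). In the other direction Slc25a33 changed by -3.44 and 1.74 (-5.18 ± 0.26, adjusted p = 7.61e-10), Slc25a28 by -2.13 and -0.05, and Slc25a11, the oxoglutarate carrier of the malate-aspartate shuttle, by -1.81 and 0.16.

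The ADP/ATP carriers were lower at the end of both paths, by -4.59 and -2.73 for Slc25a4 and -2.43 and -1.48 for Slc25a5, and the differences between paths, -1.86 and -0.94, were called. Slc25a10, Slc25a17, Slc25a22 and Slc25a25 were not called. Spike-in scaling moved the median of all features to -4.56, where the differences of Slc25a40, Slc25a42, Slc25a44 and Slc25a47 were below 0 and those of Slc25a51 and Slc25a39 at 1.48 and 0.24, not called. Both scalings subtract 1 value per array, so no direction relative to that median could change.

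**Figure D4:**
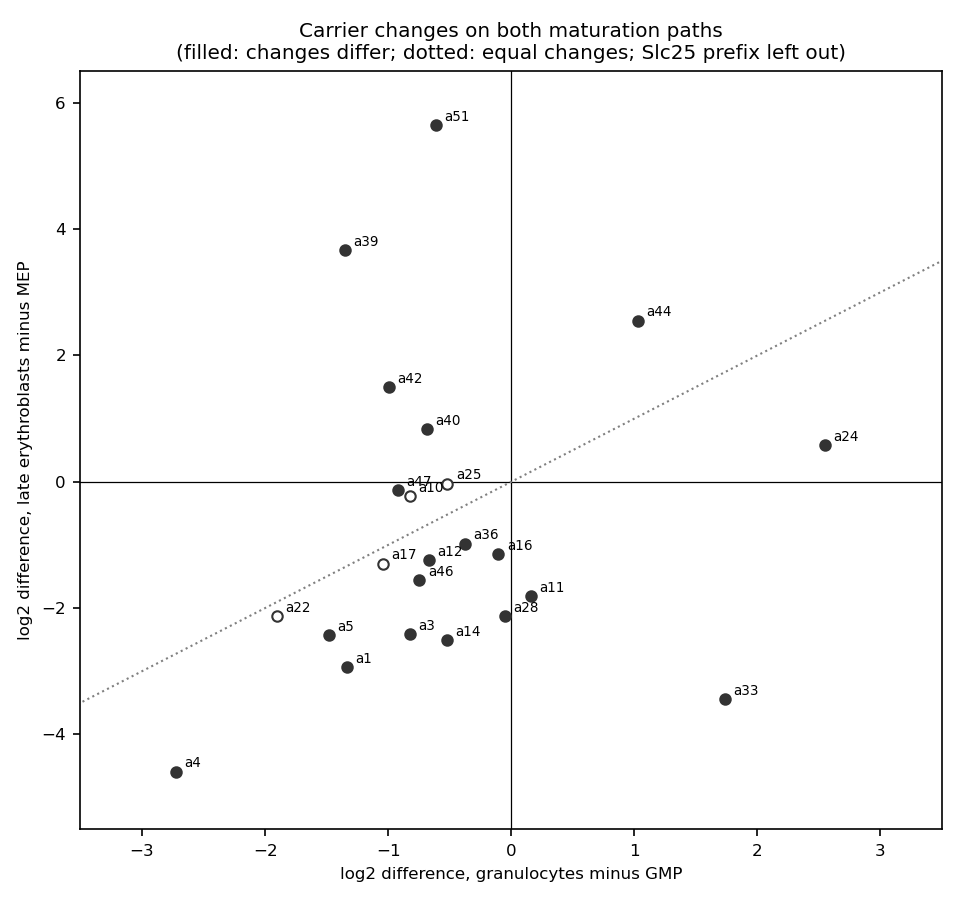
Log2 difference of 23 of the 24 carriers from GMP to granulocytes (horizontal) against that from MEP to late erythroblasts (vertical), with filled points where both differ by the interaction test and a dotted line of equal change. Relative to the 75th percentile, Slc25a51, Slc25a39 and Slc25a42 lie above 0 vertically and below 0 horizontally, Slc25a33 lies at the opposite corner, and the ADP/ATP carriers Slc25a4 and Slc25a5 are below 0 on both axes.

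Carrier proteins are made in the cytosol, and the import machinery of outer membrane receptors, small TIM chaperones and the TIM22 complex inserts them. Of its 13 genes 11 rose from LSK cells to CMP, 3 rose and 10 fell from MEP to early erythroblasts, 2 rose and 8 fell of 12 from early to late, and 11 fell from GMP to granulocytes. The shares of all features called at these 4 steps were 34.3%, 80.6%, 57.6% and 65.2%. Under spike-in scaling 1 of the 13 was called higher from LSK cells to CMP, 13 lower in early erythroblasts, none higher and 8 lower from early to late, and 5 lower in granulocytes. In early erythroblasts Timm9, a small chaperone, fell by 4.89 ± 0.24 (1 of the 2 early arrays well above background), the TIM22 subunit Agk by 4.80 ± 0.32 (likewise 1 of 2), the import pore gene Tomm40 by 3.49 ± 0.20 and Timm8a1 by 3.05 ± 0.14. Timm10, the partner of Timm9, rose by 2.12 ± 0.17 from early to late erythroblasts, while Timm22 fell by 1.27 ± 0.14. In granulocytes Timm9 fell by 2.78, Timm8a1 by 2.43, Agk by 2.21 and Tomm40 by 2.20.

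A further list held 26 mitochondrial membrane transporter genes without a Slc25a symbol, the uncoupling protein genes Ucp1, Ucp2 and Ucp3 among them. From MEP to early erythroblasts 8 rose and 10 fell of 23 tested, and from early to late 5 rose and 12 fell of 22. From GMP to granulocytes 6 rose and 15 fell of 24. Of all features 80.6%, 57.6% and 65.2% were called at these steps. Under spike-in scaling the list gave 2 higher and 18 lower, 0 and 12, and 2 and 2. Abcb10, which binds mitoferrin, rose by 5.81 ± 0.16, Abcb6 by 4.82 ± 0.18 and Ucp2 by 3.04 ± 0.29 in early erythroblasts, and Abcb8 fell by 3.24 ± 0.14. The 2 erythroid carriers left out of the family set rose there too, Slc25a37 by 7.07 and Slc25a38 by 4.37. Sfxn5, a sideroflexin, rose by 4.03 ± 0.31 in granulocytes, where Abcb8 fell by 2.59.

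Of 40 genes of enzymes that make or use the carried solutes, 11 rose and 20 fell of 35 tested from MEP to early erythroblasts, 5 rose and 17 fell of 31 from early to late, and 5 rose and 19 fell of 36 from GMP to granulocytes, beside the same 80.6%, 57.6% and 65.2% of all features. Under spike-in scaling these were 0 higher and 31 lower, 0 and 17, and 2 and 4. In early erythroblasts Glud1, glutamate dehydrogenase, fell by 4.54 ± 0.26, the folate enzyme gene Mthfd2l was at least 14.7-fold and the pantothenate kinase gene Pank1 at least 6.49-fold lower, and Crat, carnitine acetyltransferase, rose by 3.58 ± 0.30. From early to late, Pank4 fell by 1.78 ± 0.16 and the glycerol-3-phosphate dehydrogenase Gpd2 rose by 1.53 ± 0.18. In granulocytes the mitochondrial arginase Arg2 was at least 135-fold higher, the cytosolic glycerol-3-phosphate dehydrogenase Gpd1 rose by 2.32 ± 0.21, and the folate enzyme Shmt2 fell by 2.68 ± 0.19 and Pank1 by 2.56 ± 0.32. Spike-in scaling turned genes called higher in early erythroblasts to lower, 3 of the import list, 6 of the other transporters, Ucp2 among them, and 9 of the enzymes.

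The arrays came from 5 slides. With slide as a block the carriers called were 12 for CMP against LSK, 1 for MEP against CMP, 3 for GMP against CMP, 9 for MEP against GMP, 32 for early erythroblasts against MEP, 24 for late against early erythroblasts and 16 for the interaction. Within each slide that held both groups, all called carriers kept their sign in these 6 pairwise comparisons. They had been called from the same arrays, so this agreement was no separate test of the slide. Calls that ended with slide as a block are listed for at most the 5 largest called differences in each direction per comparison. In GMP against CMP these were Slc25a12 (0.62) and Slc25a35 (-0.66), and in MEP against GMP Slc25a44 (0.62) and Slc25a46 (-0.35). In granulocytes against GMP they were Slc25a53 (1.09), Slc25a21 (0.83), Slc25a26 (-2.33) and Slc25a43 (-2.07). Brackets hold log2 differences, and limma adjusted p lay between 0.0608 and 0.166. Some smaller differences lost their calls too. Over all carriers, 9 of 10 calls were kept in CMP against LSK and 2 of 4 in GMP against CMP. In MEP against GMP 8 of 11 were kept, and in granulocytes against GMP 16 of 24. The other pairwise comparisons kept all.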

How the data were processed

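Single-colour Agilent arrays of 19 samples from 7 cell types were analysed from the deposited scanner files, whose intensity values are background-subtracted processed signals of Agilent Feature Extraction 11.5.1.1 with array annotation of build mm9, per the file headers. The program, with no version, is also listed in the submitters' processing notes. The deposited series values, an intensity table whose scaling and centring are unknown, were used as an alternative only. Here, log2 of the deposited processed signal minus the array's 75th percentile was taken, spots of a probe averaged without outlier flags, and 27235 probes given symbols from RefSeq genes (GRCm38.p6), used for names and promoters only. Of the other per-sample columns 0 were left unmapped.

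Differences were tested over all features with limma 3.58.1 in R 4.3.3 (moderated tests over 7 cell type means, Benjamini-Hochberg threshold 0.05). A feature was tested where all arrays of at least 1 compared group had it well above background, and called where this held for the higher group; the interaction required all 4 groups. Where a group measured a probe on no array, an "at least N-fold" bound is given, from the brighter group's mean against, per array, whichever is higher of the dimmest detected probe's signal and that of the probe itself. The procedure was tested on simulated data.

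The members, gene lists and comparisons were chosen with earlier results of these data known. Genes with values for every sample are the 14 with the widest range of cell type means plus chosen carriers of ADP/ATP, phosphate, citrate, iron and glutathione, and up to 5 called genes in each direction are named per comparison, with others added after their values were seen. Alternatives were quantile normalization, a percentile over probes detected on all arrays, scaling on 6 spike-in probes, normexp background correction (offset 50, on median signals, as the files used hold no mean signal), the mean of all probes, no filter on dim probes, slide or replicate number as a block, the deposited series values, the arrays of the compared groups alone, a difference of at least 1, and each array left out. Estimating the prior of the spread over tested features was chosen after seeing the data. A carrier that enters the counts and some marker genes are not reported here.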

Additional observations from a re-analysis of the deposited data

Results flagged for a closer look

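The change from MEP to late erythroblasts differed from the change from GMP to granulocytes for 20 of 24 carriers by limma's interaction term (adjusted p under 0.05), against 75.4% of all features. Values, given for 19 of them, are the first change minus the second, on the log2 scale and relative to the array's 75th percentile.

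It was above 0 for Slc25a51 (6.26), the NAD+ carrier, Slc25a39 (5.02), the glutathione carrier, Slc25a42 (2.50), the coenzyme A carrier, Slc25a44 (1.52), Slc25a40 (1.52) and Slc25a47 (0.79), of which Slc25a40, Slc25a42, Slc25a44 and Slc25a47 turned to below 0 under spike-in scaling.

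It was below 0 for the nucleotide carriers Slc25a33 (-5.18) and Slc25a36 (-0.60), the mitoferrin Slc25a28 (-2.08), the uncoupling protein relative Slc25a14 (-1.98), the oxoglutarate carrier Slc25a11 (-1.97) and the ATP-Mg/phosphate carrier Slc25a24 (-1.97). The ADP/ATP carriers Slc25a4 (-1.86) and Slc25a5 (-0.94), the citrate carrier Slc25a1 (-1.60) and the phosphate carrier Slc25a3 (-1.59) were below 0 as well. So were Slc25a16 (-1.04), which turned under normexp background correction, Slc25a46 (-0.82) and Slc25a12 (-0.57).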

How the results depend on the processing

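Counts of called carriers moved by more than 1.5 times in these settings. After quantile normalization MEP against GMP gave 7. Spike-in scaling gave 2 for CMP against LSK, 0 for MEP against CMP (0 at an unadjusted p under 0.05), 2 for GMP against CMP, 4 for MEP against GMP and 5 for granulocytes against GMP. Normexp gave 17, 2 and 8 for the first 3. MEP against CMP, with 1 call, gave 0 in limma with the percentile over detected probes (5 at an unadjusted p under 0.05), without the filter on dim probes (4), with only the groups compared (3) and with a difference of at least 1 (3). The groups compared alone also gave 2 for GMP against CMP and 4 for MEP against GMP. A difference of at least 1 left 6, 2, 3, 12 and 15 for CMP against LSK, GMP against CMP, MEP against GMP, late against early erythroblasts and granulocytes against GMP.

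Signs turned under spike-in scaling for Slc25a5 (0.21), Slc25a17 (0.33) and Slc25a46 (0.39) in MEP against GMP, for Slc25a39 (-1.05), Slc25a40 (-1.06), Slc25a41 (-1.11) and Slc25a21 (-1.14) in early erythroblasts against MEP, and for Slc25a44 (-0.27), Slc25a36 (-0.33) and Slc25a33 (-0.37) in late against early. They turned under normexp for Slc25a35 in GMP against CMP (0.078) and for Slc25a53 (-0.036) and Slc25a21 (-0.0066) in granulocytes against GMP, and with the mean of all probes for Slc25a44 in late against early erythroblasts (-0.10). Over all called carriers, spike-in scaling turned 9 in early erythroblasts against MEP and 4 in MEP against GMP. Normexp also turned Slc25a29, Slc25a30 and Slc25a35 in early erythroblasts against MEP. The cause was not tested.

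Leaving out 1 array gave 8 to 12 calls for CMP against LSK, 0 to 1 for MEP against CMP, 3 to 5 for GMP against CMP, 5 to 13 for MEP against GMP, 30 to 32 for early erythroblasts against MEP, 17 to 24 for late against early, 20 to 26 for granulocytes against GMP, 17 to 20 for the interaction and 36 to 39 for variation over 7 cell types. MEP against CMP gave 0 without LSK replicate 3, CMP replicate 2 or 3, MEP replicate 2 or 3, or any 1 granulocyte array.

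Replicate numbers were not taken to pair the samples, since same-numbered LSK and CMP arrays had correlations of -0.46, -0.24 and -0.52 of their deviations. Same-numbered MEP and CMP arrays share slides (0.24, -0.02 and 0.41), as do GMP and CMP replicate 2 (0.48) and late and early erythroblast replicate 1 (0.36), and with slide as a block the counts of these 3 comparisons were 1, 3 and 24. With the replicate block the counts were 10, 0 (3 at an unadjusted p under 0.05), 3, 11, 32, 23, 25 and, for the interaction, 17.

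The erythroblast arrays had a 75th percentile of 50.1 to 81.3 intensity units. Carriers well above background on no array of an erythroblast stage have at most bounds, while the dim Slc25a41 has a difference. Groups of 2 or 3 arrays limit the precision.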
